A study of Mus musculus with 32 samples.

Results

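The comparison described here was the transcriptional effect of adding BCNU to auranofin for 24 h in 3T3-L1 adipocytes, a mouse fibroblast line that takes on the features of fat cells once differentiated. It set the 2 arrays of adipocytes given both drugs (AF+BCNU, 1 µM auranofin and 100 µM BCNU) against the 2 arrays of adipocytes given 1 µM auranofin alone (AF), so that auranofin was common to both groups. These 4 arrays were taken by their labels from 32 arrays in 16 groups of 2, and all 21506 genes represented by a single symbol were tested. The study followed gene expression in these cells over 2, 4, 8 and 24 h of oxidative stress from inside the cell. Arrays of cells given 100 µM BCNU alone and of control cells at 24 h, and of AF+BCNU and AF cells at 2, 4 and 8 h, were used for the comparisons that follow. No genotype or animal was involved, and the labels did not state whether the 2 arrays of a group came from separate cultures. Each p-value therefore rests on the spread between replicate arrays, estimated for each gene over all 16 groups, which may be technical.

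Cells keep protein thiols reduced through the thioredoxin and glutathione systems, which back each other up. Auranofin inhibits thioredoxin reductase, whereas BCNU inhibits glutathione reductase and also alkylates and crosslinks DNA. Oxidised and misfolded proteins release heat shock factor, which switches on chaperone genes. Electrophiles release NRF2, which switches on genes of glutathione synthesis and detoxification, and stress-activated MAP kinases switch on the immediate early transcription factors.

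Because chaperone genes held the largest rise, the proximal promoters of 3 of them are printed here, each as the 250 bases before the RefSeq transcription start, read 5′ to 3′ on the gene's strand (GRCm38.p6, from RefSeq). Capitals mark matches on either strand to the heat shock core GAANNTTC in Hspa1a (chr17:34972157-34972406, minus strand) and Hspb1 (chr5:135887669-135887918, plus strand), and to the longer heat shock element, the core followed by NNGAA, in Hspe1 (chr1:55087898-55088147, plus strand).
Hspa1a: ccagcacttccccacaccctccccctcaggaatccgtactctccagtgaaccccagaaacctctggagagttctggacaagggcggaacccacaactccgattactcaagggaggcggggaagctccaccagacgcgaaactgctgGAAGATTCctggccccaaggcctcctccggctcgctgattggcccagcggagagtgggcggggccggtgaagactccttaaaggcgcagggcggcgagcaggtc
Hspb1: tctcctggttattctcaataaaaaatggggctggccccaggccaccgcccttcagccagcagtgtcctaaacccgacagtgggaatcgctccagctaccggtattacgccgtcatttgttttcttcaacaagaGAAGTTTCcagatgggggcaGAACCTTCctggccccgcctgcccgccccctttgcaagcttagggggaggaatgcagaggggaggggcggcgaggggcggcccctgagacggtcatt
Hspe1: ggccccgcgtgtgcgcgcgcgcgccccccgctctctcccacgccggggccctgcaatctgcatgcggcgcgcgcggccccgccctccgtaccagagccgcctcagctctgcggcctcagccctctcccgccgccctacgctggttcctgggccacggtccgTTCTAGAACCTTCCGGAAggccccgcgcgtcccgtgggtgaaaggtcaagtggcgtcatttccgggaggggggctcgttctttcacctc
The core of Hspa1a began 104 bases before the start, the 2 cores of Hspb1 began 117 and 97 bases before it, and the 2 overlapping elements of Hspe1 began 89 and 84 bases before it.

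Adding BCNU changed 1596 of the 21506 genes at 24 h, which was 7.42% of those tested. A gene was called changed where limma gave a Benjamini-Hochberg adjusted p under 0.05 and the absolute log2 change was over 0.5. Of these, 799 were higher in AF+BCNU cells (3.72% of genes tested) and 797 were lower (3.71%), and 288 rose and 303 fell by over 1 on the log2 scale. The median change over all genes was 0.01 on the log2 scale, and the median SE of a change was 0.17. In the same fit, AF differed from control cells in 275 genes (1.28%) and BCNU from control cells in 41 genes (0.191%). These comparisons share arrays with one another, so their gene lists were not set against each other. The replicate arrays of each group correlated at 0.993 to 0.995 over all genes, and the median absolute difference between replicates was 0.14 to 0.17. On the first principal component of the 8 arrays at 24 h, which carried 57.4% of their variance, the AF+BCNU arrays scored 36.9 and 34.8 and the AF arrays −6.15 and −8.94. The BCNU arrays scored −12.0 and −12.7 and the control arrays −15.5 and −16.3, so that the AF+BCNU arrays stood apart from all others.

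**Figure D1:**
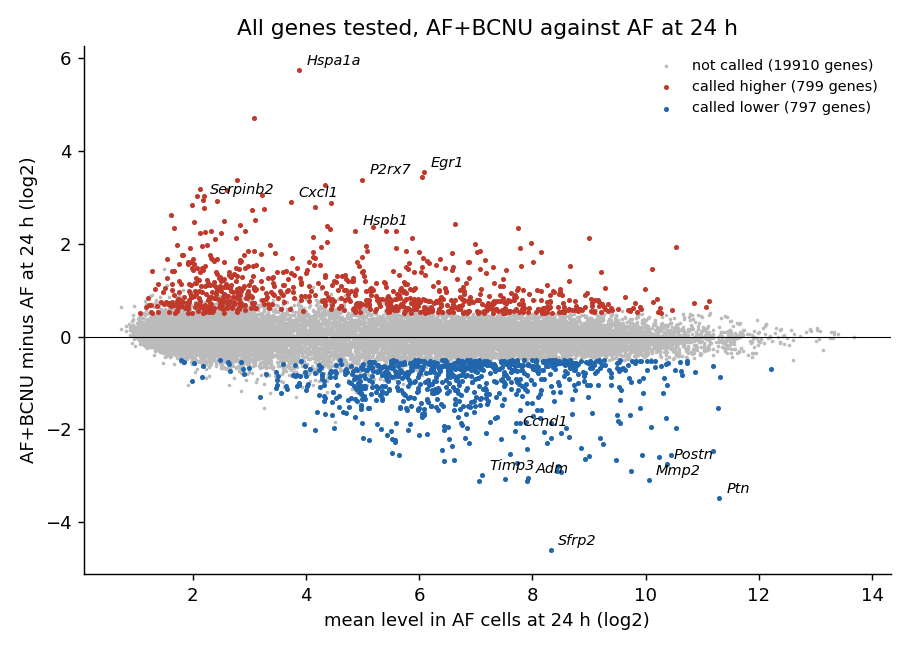
Change on adding BCNU to auranofin at 24 h (AF+BCNU minus AF, log2, vertical axis) against the mean log2 level in AF cells (horizontal axis), with a point for each of 21506 genes. The 799 genes called higher and the 797 called lower lie on both sides of 0, with Hspa1a at the top (5.75) and Sfrp2 at the bottom (−4.60).

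The 12 genes with the largest rise encoded a chaperone, transcription factors, secreted factors and proteins of the cytoskeleton and membrane. Hspa1a, the inducible cytosolic HSP70, had log2 levels of 9.78 and 9.48 in AF+BCNU cells, against 3.84 and 3.93 in AF cells. It was 53.7-fold higher (5.75 ± 0.40, log2 change ± SE, n = 2 arrays a group, limma adjusted p = 2.82e-09), the largest rise among genes with an established symbol. Egr1, a zinc-finger transcription factor, had 9.73 and 9.51 in AF+BCNU cells, against 6.17 and 5.99 in AF cells, and rose 11.7-fold. Atf3, a stress-induced repressor, had 9.60 and 9.37 in AF+BCNU cells, against 6.43 and 5.68 in AF cells, and rose 10.8-fold. For each of these 3 genes both AF+BCNU arrays lay far above both AF arrays, and the AF arrays of Atf3 were the more spread. P2rx7, an ATP-gated cation channel, had 8.34 and 8.43 in AF+BCNU cells, against 4.81 and 5.19 in AF cells, and rose 10.4-fold. Sprr1a, a cornified envelope protein also induced in injured nerve and heart, had 7.54 and 7.67 in AF+BCNU cells, against 4.32 and 4.37 in AF cells, and rose 9.60-fold. Cxcl1, a neutrophil chemokine, had 6.64 on both AF+BCNU arrays, against 4.17 and 3.32 in AF cells, and rose 7.44-fold. The AF+BCNU arrays agreed closely for these 3 genes, and the AF arrays of Cxcl1 were the more spread. The remaining rises were Tmem236 (3.16), Bsx, a homeobox factor (3.05), Ccdc81 (3.02), Scin, the actin-severing protein scinderin (3.02), Serpinb2, an inhibitor of plasminogen activators (2.95), and Fam71a (2.93). In AF cells, Ccdc81, Scin and Serpinb2 had mean levels below 2.25, the largest of the lower quartiles of the 24 h arrays, so that these values lay near background.

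Secreted and surface proteins of fibroblasts filled most of the other end of the range. Sfrp2, a secreted modulator of Wnt signalling, had 3.00 and 4.45 in AF+BCNU cells, against 8.53 and 8.13 in AF cells. It was 24.3-fold lower (−4.60 ± 0.29, n = 2 arrays a group, limma adjusted p = 6.94e-10), and its AF+BCNU arrays differed from each other more than its AF arrays did. Ptn, the growth factor pleiotrophin, had 7.88 and 7.76 in AF+BCNU cells, against 11.32 and 11.29 in AF cells, and fell 11.2-fold. Mmp2, a gelatinase, had 7.08 and 6.83 in AF+BCNU cells, against 10.10 and 10.02 in AF cells, and fell 8.58-fold. The groups were widely apart for both genes, with replicates close together. Adm, the vasodilator peptide adrenomedullin, had 4.91 and 4.84 in AF+BCNU cells, against 7.87 and 7.99 in AF cells, and fell 8.32-fold. The other 8 of the 12 falls were Pcdh18, a protocadherin (−3.12), Slit2, an axon and cell guidance ligand (−3.10), Islr, a leucine-rich repeat protein of mesenchymal cells (−3.06), Timp3, a metalloproteinase inhibitor (−2.98), Osr1 (−2.91), a transcription factor of mesenchymal precursors, Cdh11, a cadherin of mesenchymal cells (−2.91), Grem1, a secreted BMP antagonist (−2.90), and Thy1, a surface glycoprotein of fibroblasts (−2.80).

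Most chaperone genes tested rose. Of 21 heat shock response genes tested, 16 were higher in AF+BCNU cells and none was lower, beside 3.72% and 3.71% of all genes. The list's median change was 0.92, beside 0.01 over all genes. Hspb1, the small heat shock protein HSP27, had 7.50 and 6.79 in AF+BCNU cells, against 4.69 and 5.05 in AF cells, and rose by 2.28 ± 0.18 as the median of its 2 probe sets. Its probe set of higher level alone gave 3.07. Hsph1, the HSP110 nucleotide exchange factor of HSP70, had 11.09 and 11.15 in AF+BCNU cells, against 9.05 and 8.94 in AF cells (2.12 ± 0.15). Dnajb1, the HSP40 that hands clients to HSP70, had 9.92 and 10.09 in AF+BCNU cells, against 7.98 and 7.97 in AF cells (2.03 ± 0.11). In all 3 genes, and in Hspa1a, every AF+BCNU array was above every AF array. Hspa1b, the second inducible HSP70 gene, had 12.49 and 12.45 in AF+BCNU cells, against 10.55 and 10.53 in AF cells (1.93 ± 0.13). Hspa1a and Hspa1b are near-identical copies, identical at 296 of 300 letters of their promoter windows, so the split of signal between them is uncertain. The other 11 called members rose by 0.57 to 1.52, among them the co-chaperone Bag3 (1.52), the lens and muscle chaperone Cryab (1.39), the inducible HSP90 gene Hsp90aa1 (1.37), and the mitochondrial chaperonins Hspe1 (1.11) and Hspd1 (0.57).

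Auranofin alone also raised some chaperone genes. Against control cells, AF cells were called higher for 5 of the 21 genes (background 0.921% of genes called higher) and lower for none. Hspa1b had 8.44 and 8.68 in BCNU cells and 8.32 and 8.46 in control cells, so that BCNU on top of auranofin added 1.93 and auranofin alone 2.15. Hspa1a had 3.02 and 2.42 in BCNU cells and 2.17 and 2.27 in control cells, and AF cells were 1.67 above control cells. Its control mean of 2.22 lay near background. By contrast, Dnajb1 changed by 0.47 with auranofin alone, which was under the 0.5 threshold, and Cryab by 0.01 (9.29 and 9.13 in AF cells, against 9.26 and 9.14 in control cells).

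**Figure D2:**
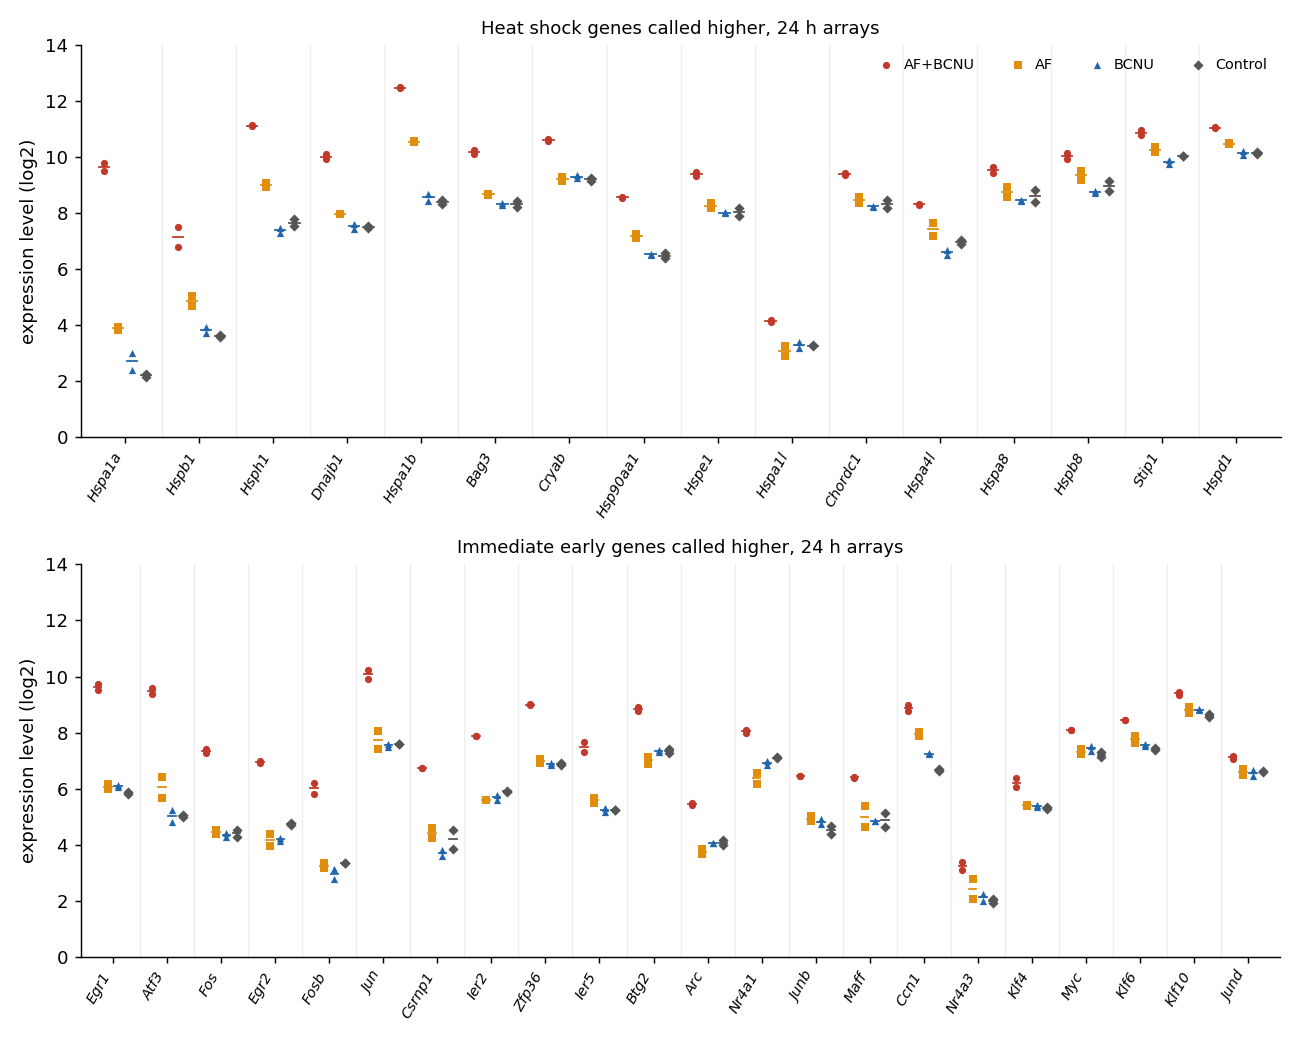
Log2 level on each of the 2 arrays a group at 24 h for the called heat shock and immediate early genes, with AF+BCNU, AF, BCNU and control groups side by side and each point an array. The AF+BCNU points lie above the AF points for every gene shown, by most for Hspa1a (9.78 and 9.48 against 3.84 and 3.93).

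The promoters printed above belong to a set of 13 called heat shock genes with a RefSeq window of 300 bases (250 before the start and 50 after it). The 13-letter element was found on either strand in 4 of these 13 (30.8%), namely Hsph1, Hspe1, Chordc1 and Hspd1, and in 0.662% of the 27025 genes with such windows. Its core GAANNTTC was found in 9 of the 13 (69.2%), among them Hspa1a, Hspa1b, Hspb1 and Bag3, and in 9.04% of all genes. Neither was found in the 5 heat shock genes that were not called. With so few genes, finding none does not set them apart from all genes. Hspe1 and Hspd1 are transcribed in opposite directions from windows that share 285 bases, and so count the same sequence. These matches describe letters in a window and do not show binding.

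Immediate early genes gave the largest median rise of the 36 lists. Of 29 tested, 22 were higher in AF+BCNU cells and none was lower, beside 3.72% and 3.71% of all genes. The list's median change was 1.40. Among the AP-1 subunits, Fos had 7.42 and 7.26 in AF+BCNU cells, against 4.52 and 4.39 in AF cells (2.89 ± 0.16, limma adjusted p = 6.65e-11). Jun had 10.24 and 9.93 in AF+BCNU cells, against 7.43 and 8.06 in AF cells (2.34 ± 0.16). Fos and Jun were well apart between the groups, and Jun's AF arrays were the more spread. Egr2, a zinc-finger factor related to Egr1, had 6.91 and 6.98 in AF+BCNU cells, against 3.95 and 4.37 in AF cells (2.78 ± 0.20). The called members outside the naming rule, given after their values were seen, included Fosb (2.75), Ier2 (2.28), Zfp36, which encodes an mRNA-destabilising protein (2.00), Nr4a1, an orphan nuclear receptor (1.67), and Myc (0.77). Few of these genes moved with auranofin alone. AF cells were called higher than control cells for 2 of the 29, one of them Atf3 (1.02), and lower for 1. The background was 0.921% of genes called higher and 0.358% called lower. Egr1 had 6.06 and 6.13 in BCNU cells and 5.81 and 5.89 in control cells, so that its levels without both drugs together stayed between 5.81 and 6.17.

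Phosphatases and Sprouty-family proteins switch MAP kinases off. Of 17 of their genes tested, 10 were higher in AF+BCNU cells and 1 was lower, beside 3.72% and 3.71% of all genes. The list's median change was 0.76. Dusp5, a nuclear ERK phosphatase, had 7.61 and 7.94 in AF+BCNU cells, against 6.02 and 6.12 in AF cells (1.70 ± 0.20). Dusp4, another nuclear phosphatase, had 7.54 and 7.32 in AF+BCNU cells, against 6.08 and 6.13 in AF cells (1.33 ± 0.12). Spred2, an inhibitor of Raf activation, rose by 1.13 and Dusp8, which acts on JNK and p38, by 1.04. The member that fell was Spry1, a Sprouty inhibitor of receptor tyrosine kinase signalling, with 5.72 and 5.89 in AF+BCNU cells, against 6.79 and 6.73 in AF cells (−0.96 ± 0.16). The cyclic AMP response element TGACGTCA was found in 2 of the 7 called phosphatase and Sprouty genes with a window (28.6%) and in 2 of the 17 called immediate early genes with one (11.8%), beside 2.03% of all genes. The antioxidant response element TGACNNNGC was found in 2 of the 7 (28.6%) and 6 of the 17 (35.3%), beside 14% of all genes. The AP-1 site TGANTCA, which can overlap it, was found in 0 of the 7 and 1 of the 17 (5.88%), beside 8.97%. Among members not called higher, the antioxidant response element was in 2 of 5 immediate early genes (40%) and 0 of 7 phosphatase and Sprouty genes. The cyclic AMP response element and the AP-1 site were in none of these. With so few genes, finding none does not set them apart from all genes. Each motif was searched on both strands.

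The NRF2 targets, most of which were higher with auranofin alone, moved both ways on adding BCNU. Of the 24 tested, 2 rose and 4 fell, beside 3.72% and 3.71% of all genes, with changes of −1.09 to 1.91 and a median of −0.06. In AF cells, 19 of the 24 were higher than in control cells and none was lower, beside 0.921% and 0.358% of all genes. The list's median change between AF and control cells was 1.04. Hmox1, haem oxygenase 1, had 12.77 and 12.69 in AF+BCNU cells and 12.75 and 12.70 in AF cells (0.01 ± 0.16, adjusted p = 0.989), against 10.25 and 10.26 in control cells. Nqo1, a quinone reductase, had 9.97 and 10.05 in AF+BCNU cells and 10.62 and 10.35 in AF cells (−0.47 ± 0.15, adjusted p = 0.050003), against 7.56 and 7.93 in control cells. Thus, neither was called changed by the addition, while both AF+BCNU arrays and both AF arrays lay above the control arrays. Gclm, the modifier subunit of glutathione synthesis, changed by −0.15 ± 0.10 and Slc7a11, the cystine transporter, by 0.26 ± 0.26. Slc7a11 had 7.01 and 7.09 in AF+BCNU cells, inside its AF values of 7.26 and 6.33, and the single AF array at 6.33 set that spread.

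The 2 NRF2 targets that rose were Osgin1, a growth inhibitor induced by oxidants, and Txnrd1, cytosolic thioredoxin reductase and the target of auranofin. Osgin1 had 9.86 and 9.51 in AF+BCNU cells, against 7.82 and 7.74 in AF cells (1.91 ± 0.13, limma adjusted p = 1.99e-09). Txnrd1 had 9.77 and 9.92 in AF+BCNU cells, against 9.00 and 9.07 in AF cells (0.81 ± 0.11, limma adjusted p = 4.09e-05), and 8.29 and 8.28 in control cells. Gsr, glutathione reductase and the target of BCNU, had 10.69 and 10.74 in AF+BCNU cells and 10.93 and 10.63 in AF cells (−0.07 ± 0.10). The gene for the one target was thus higher on both AF+BCNU arrays, and that for the other lay within the AF values. The 4 that fell were exporters and transferases of glutathione conjugates. Abcc4 had 8.41 and 8.47 in AF+BCNU cells, against 9.69 and 9.37 in AF cells (−1.09 ± 0.20), and Abcc1 fell by 0.58. Gsta3 had 6.35 and 7.08 in AF+BCNU cells, against 7.53 and 7.31 in AF cells (−0.71 ± 0.22), and Gsta4 fell by 0.54. The Gsta3 call was lost without AF+BCNU array 1 (−0.34), without AF array 1 (−0.59) and without AF array 2 (−0.82), after cyclic loess (adjusted p = 0.0516) and with the 24 h arrays alone (adjusted p = 0.141), and that of Gsta4 without AF+BCNU array 1 (−0.50). Abcc4 also was lower with BCNU alone (6.59 and 6.44 in BCNU cells, against 7.55 and 7.95 in control cells).

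**Figure D3:**
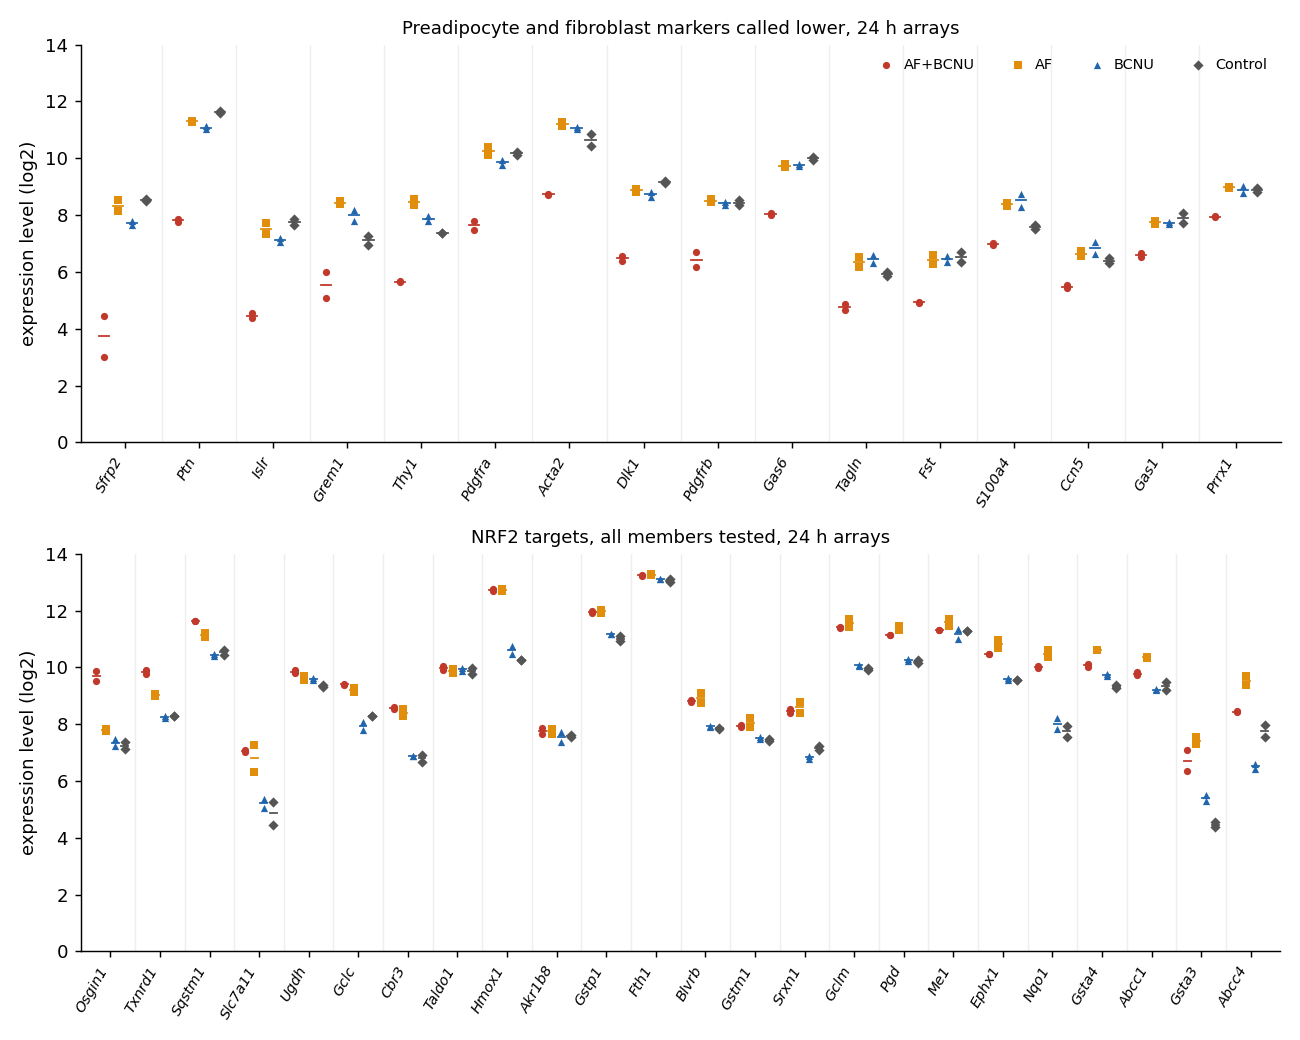
Log2 level on each of the 2 arrays a group at 24 h, with AF+BCNU, AF, BCNU and control groups side by side, for the 16 preadipocyte and fibroblast markers called lower (upper panel) and the 24 NRF2 targets (lower panel). Every AF+BCNU point of the upper panel lies below the AF, BCNU and control points of its gene, as for Ptn (7.88 and 7.76 against 11.32 and 11.29 in AF cells), whereas in the lower panel most AF+BCNU and AF points lie close together, as for Hmox1 (12.77 and 12.69 against 12.75 and 12.70).

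In the remaining redox lists, few members or none were called, beside 3.72% called higher and 3.71% called lower over all genes. Of 26 genes of glutathione synthesis, use and breakdown, 1 rose and 2 fell. Chac1, which degrades glutathione and is induced by ATF4, had 7.71 and 7.95 in AF+BCNU cells, against 6.92 and 6.62 in AF cells (1.06 ± 0.14). Gpx8, an endoplasmic reticulum peroxidase, had 8.33 and 8.36 in AF+BCNU cells, against 9.44 and 9.33 in AF cells (−1.05 ± 0.13). Of 18 glutathione S-transferases, 1 rose and 2 fell, the riser being Gsto2 (0.65), whose call was lost on leaving out any 1 of the 4 arrays (0.57 to 0.73). Among 17 thioredoxin and peroxiredoxin genes, Sesn2, a stress-induced inhibitor of mTORC1, rose by 1.46 and Txnrd1 by 0.81, while Sesn3 fell by 0.63. Txnip, the thioredoxin-binding arrestin, had 12.10 and 12.11 in AF+BCNU cells and 11.93 and 12.07 in AF cells (0.10 ± 0.08). None of 13 metallothionein and metal response genes was called, with Mt2 at 11.84 and 11.85 in AF+BCNU cells and 11.49 and 11.34 in AF cells (0.43 ± 0.18, adjusted p = 0.139).

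The ATF4 branch of the stress response, which is driven by kinases that sense amino acid shortage and misfolded protein, changed at some members. Of 29 tested, 5 rose and 2 fell, beside 3.72% and 3.71% of all genes. The other 22 were not called, and the median change was 0.25. Ppp1r15a, the phosphatase subunit that restores translation, had 8.34 and 8.45 in AF+BCNU cells, against 6.76 and 6.41 in AF cells (1.81 ± 0.19). Ddit3, the factor CHOP, had 9.94 and 9.77 in AF+BCNU cells, against 8.97 and 8.35 in AF cells (1.20 ± 0.18). The other risers were Atf3, Sesn2 and Chac1, given above. The 2 that fell were Aldh1l2 (−0.78) and Vldlr (−0.53). The Aldh1l2 call was lost without AF+BCNU array 1 (−0.77), AF+BCNU array 2 (−0.80) or AF array 1 (−0.62), and that of Vldlr without AF+BCNU array 1 (−0.45). None of 24 genes of the endoplasmic reticulum unfolded protein response was called, and none of 32 proteasome subunits, with median changes of −0.11 and 0.05. Of 21 autophagy genes, 1 was called, Atg12 (0.90 ± 0.11), which encodes a ubiquitin-like conjugation factor.

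Target genes of p53, which responds to DNA damage, moved at some members. Of 24 tested, 4 rose and 1 fell, beside 3.72% and 3.71% of all genes, with a median change of 0.14. Plk3, a stress-responsive polo-like kinase, had 7.82 and 7.58 in AF+BCNU cells, against 5.33 and 5.49 in AF cells (2.29 ± 0.18). Btg2, an antiproliferative gene that is also an immediate early gene, had 8.90 and 8.79 in AF+BCNU cells, against 6.89 and 7.15 in AF cells (1.83 ± 0.11). Sesn2 was the third, and Plk2 rose by 0.51, a call that was lost on leaving out any 1 of the 4 arrays (0.46 to 0.55). Zmat3, an RNA-binding p53 target, fell by 0.54, and this call was lost without AF+BCNU array 1 (−0.54) or AF array 2 (−0.51). Mdm2, the ubiquitin ligase of p53, had 12.69 and 12.73 in AF+BCNU cells and 12.58 and 12.56 in AF cells (0.14 ± 0.08, adjusted p = 0.307). Mgmt, which removes alkyl groups from guanine, had 6.85 and 6.64 in AF+BCNU cells and 6.95 and 6.90 in AF cells (−0.18 ± 0.16). Thus, neither of these was called. Their AF+BCNU and AF arrays did not overlap, but that was common with 2 arrays a group. Both AF+BCNU arrays lay above both AF arrays in 5493 of 21506 genes and below them in 5232. Of 31 DNA repair genes, none rose and 2 fell. Brca2, of homologous recombination, changed by −0.63 and lost its call without AF+BCNU array 2 (−0.47) or AF array 1 (−0.60), and Fan1, a crosslink repair nuclease, changed by −0.54 and lost its call without any 1 of the 4 arrays (−0.39 to −0.69).

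Genes of proliferation fell at some members. Of 33 genes of DNA replication and mitosis, 1 rose and 6 fell, beside 3.72% and 3.71% of all genes. Their median change was −0.12. Ccnd1, the G1 cyclin D1, had 5.28 and 6.01 in AF+BCNU cells, against 7.47 and 7.92 in AF cells (−2.05 ± 0.21). Mki67, the proliferation antigen Ki-67, had 4.71 and 4.79 in AF+BCNU cells, against 5.89 and 6.43 in AF cells (−1.40 ± 0.23), and 6.75 and 6.66 in BCNU cells and 5.74 and 5.73 in control cells. For both genes the AF+BCNU arrays were the lowest of the 8 arrays at 24 h. Ccna2, cyclin A2, fell by 1.02 and Kif11, a spindle kinesin, by 0.88. Cdc20, an activator of the anaphase-promoting complex, rose by 1.20, a call that was lost without AF array 1 (0.69). Among 15 tubulins, Tuba1a had 5.16 and 5.31 in AF+BCNU cells, against 7.53 and 7.35 in AF cells (−2.21 ± 0.16), Tubb5 fell by 0.64 and none rose.

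The lowest median of the 36 lists was that of preadipocyte and fibroblast markers, genes of the cells from which these adipocytes are differentiated. Of 24 markers tested, 16 were lower in AF+BCNU cells and none was higher, beside 3.71% and 3.72% of all genes. The list's median change was −1.45. In bulk RNA, fewer cells of a type and less RNA per cell cannot be told apart. Summed over the 24 markers on the linear scale, the signal was 10219 and 10508 in AF+BCNU cells, against 18897 and 19043 in AF cells, 17362 and 17637 in BCNU cells and 18481 and 19314 in control cells. The AF+BCNU arrays were therefore lower than every other array, while the AF arrays lay within the control range. Dlk1, the preadipocyte factor that inhibits differentiation, had 6.37 and 6.58 in AF+BCNU cells, against 8.82 and 8.91 in AF cells (−2.39 ± 0.13). Pdgfra, a receptor that marks adipocyte precursors, had 7.48 and 7.79 in AF+BCNU cells, against 10.38 and 10.10 in AF cells (−2.60 ± 0.13). Thy1 had 5.68 and 5.64 in AF+BCNU cells, against 8.55 and 8.36 in AF cells, 7.78 and 7.97 in BCNU cells and 7.36 and 7.38 in control cells. The 2 AF+BCNU arrays were below all 6 others for Thy1 and Pdgfra alike. Grem1, like Thy1, was higher with auranofin alone (1.32) and stood at 5.09 and 5.99 in AF+BCNU cells, against 8.39 and 8.48 in AF cells. Acta2 (−2.46) and Tagln (−1.57), contractile genes of activated fibroblasts, were also lower.

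Among extracellular matrix genes, lower calls outnumbered higher ones in each of 3 lists. Of 29 collagen genes, 9 were lower in AF+BCNU cells and none was higher, beside 3.71% and 3.72% of all genes. The list's median change was −0.26. Col1a1, the main chain of fibrillar collagen I, had 8.60 and 8.54 in AF+BCNU cells, against 10.48 and 10.60 in AF cells (−1.97 ± 0.10). Col11a1 had 3.31 and 2.73 in AF+BCNU cells, against 5.51 and 5.53 in AF cells (−2.50 ± 0.18), and 6.84 and 6.43 in control cells, so that it was also lower with auranofin alone. Col12a1 fell by 1.71 and Col1a2 by 1.55. The called collagens included chains of fibrillar types I, III, V and XI and 1 chain of basement membrane collagen IV, Col4a2 (−0.52).

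Matrix glycoproteins and proteoglycans gave 16 lower and none higher of 32, beside 3.71% and 3.72% of all genes. The list's median change was −0.51. Postn, the matricellular protein periostin, had 7.73 and 7.52 in AF+BCNU cells, against 10.49 and 10.27 in AF cells (−2.75 ± 0.13). Ogn, the small proteoglycan osteoglycin, had 6.90 and 6.75 in AF+BCNU cells, against 9.59 and 9.36 in AF cells and 10.51 and 10.44 in control cells (−2.66 ± 0.12). Fbln1, fibulin 1, had 4.31 and 3.61 in AF+BCNU cells, against 6.60 and 6.64 in AF cells (−2.66 ± 0.20). Ogn was also lower in AF than in control cells, whereas Fbln1 was not (6.53 and 6.55 in control cells). Between AF and control cells, 8 of the 32 members were lower and 2 were higher, beside 0.358% and 0.921% of all genes. Decorin (Dcn), a collagen-binding proteoglycan, fell by 1.94, and fibronectin (Fn1), outside the naming rule, by 0.87.

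Of 28 matrix proteases, inhibitors and crosslinking enzymes, 14 fell and 2 rose, beside 3.71% and 3.72% of all genes. The list's median change was −0.68. Lox, the lysyl oxidase that crosslinks collagen, had 7.36 and 7.41 in AF+BCNU cells, against 9.92 and 9.94 in AF cells (−2.55 ± 0.13), and its relative Loxl3 fell by 2.29. Timp3 had 3.79 and 4.46 in AF+BCNU cells, against 7.14 and 7.08 in AF cells (−2.98 ± 0.22). Mmp2, given above, completed the largest 4 falls, so that a protease, its class of inhibitor and crosslinkers fell alike. The 2 that rose were Serpinb2 and Mmp13. Mmp13, a collagenase, had 6.95 and 7.10 in AF+BCNU cells, against 5.12 and 5.01 in AF cells, 3.86 and 3.75 in BCNU cells and 3.81 and 3.72 in control cells (1.96 ± 0.28).

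Signalling ligands and receptors moved both ways. In the TGF-beta and BMP list of 37, 3 rose and 7 fell, beside 3.72% and 3.71% of all genes. Ltbp1, which stores latent TGF-beta in the matrix, had 5.81 and 5.91 in AF+BCNU cells, against 7.23 and 7.15 in AF cells (−1.33 ± 0.12), and Tgfb3 (−1.08) and Ltbp2 (−1.03) also fell. Bmp4 (−0.95) lost its call without AF+BCNU array 1 (−0.80) or AF array 1 (−0.86). The inhibitor of differentiation Id3 had 7.69 and 7.43 in AF+BCNU cells, against 5.83 and 6.28 in AF cells (1.50 ± 0.26). Smad7, an inhibitory Smad, rose by 0.68 and lost its call without AF+BCNU array 2 (0.53), AF array 1 (0.69) or AF array 2 (0.68), and Id1 rose by 0.65 with calls lost on leaving out 3 of the 4 arrays (0.57 to 0.65).

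Of 14 EGF-family ligands and receptors, 2 rose and 2 fell, beside 3.72% and 3.71% of all genes. Nrg1, the ligand neuregulin 1, had 6.50 and 6.48 in AF+BCNU cells, against 8.58 and 8.72 in AF cells (−2.16 ± 0.11), and Egfr, the EGF receptor, had 6.84 and 6.62 in AF+BCNU cells, against 7.82 and 7.99 in AF cells (−1.17 ± 0.11). Errfi1, a feedback inhibitor of the EGF receptor, rose by 0.66, and the ligand Epgn rose by 0.78, a call that was lost on leaving out 3 of the 4 arrays (0.58 to 0.80). The ligand, the receptor and the feedback inhibitor thus did not move one way.

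Cytokine and NF-kB genes gave 5 higher and 5 lower of 31, beside 3.72% and 3.71% of all genes. Lcn2, the iron-binding adipokine lipocalin 2, had 8.10 on both AF+BCNU arrays, against 6.87 and 6.34 in AF cells (1.49 ± 0.19). Il6 had 3.84 and 4.64 in AF+BCNU cells, against 3.03 and 2.52 in AF cells (1.47 ± 0.27). Cxcl1 was the largest rise of the list and Nfkbiz, a nuclear cofactor of NF-kB, rose by 1.02. Cxcl12, a stromal chemokine, had 8.09 and 7.69 in AF+BCNU cells, against 10.46 and 10.45 in AF cells (−2.56 ± 0.13). Vcam1, an adhesion molecule, had 6.52 and 6.61 in AF+BCNU cells, against 7.87 and 8.11 in AF cells (−1.43 ± 0.14). Thus, 2 chemokines of the same family moved in opposite directions. Cxcl5 (−1.11) lost its call without AF+BCNU array 1 (−1.08), AF+BCNU array 2 (−1.13) or AF array 1 (−0.98), and Ccl7 (−0.93) without AF+BCNU array 1 (−0.92), AF array 1 (−0.92) or AF array 2 (−0.94). Of 22 interferon-stimulated genes, 1 was called, Ifit2 (−1.28), and leaving out any 1 of the 4 arrays removed the call (−1.14 to −1.43).

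Adipocyte identity genes were called about as often as all genes. Of 25 tested, 1 rose and 1 fell, near the 3.72% and 3.71% of all genes, and the median change was −0.00. Adipoq, the adipokine adiponectin, had 11.44 and 11.31 in AF+BCNU cells and 11.38 and 11.53 in AF cells (−0.08 ± 0.09). Fabp4, the adipocyte fatty acid binding protein, had 13.17 and 13.24 in AF+BCNU cells and 13.06 and 13.09 in AF cells (0.13 ± 0.09). Pparg, the master regulator of adipogenesis, had 12.04 and 12.10 in AF+BCNU cells and 11.95 and 12.03 in AF cells (0.08 ± 0.08). The group means of these 3 genes lay at percentile 99.4 or above of all genes tested, so that defining markers of the labelled adipocytes were present at high levels. Cidea, a lipid droplet protein of thermogenic fat, changed by 1.13 and Car3, a carbonic anhydrase of fat cells, by −1.03. The Cidea call was lost without AF+BCNU array 1 (1.07), AF+BCNU array 2 (1.19) or AF array 1 (0.81), and that of Car3 without AF+BCNU array 2 (−0.75) or AF array 1 (−0.68).

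Lipid and insulin genes fell at some members. Of 22 genes of fatty acid and triglyceride synthesis, none rose and 3 fell, beside 3.72% and 3.71% of all genes. Their median change was −0.32. Fasn, fatty acid synthase, had 11.51 and 11.52 in AF+BCNU cells, against 12.19 and 12.24 in AF cells (−0.70 ± 0.09, limma adjusted p = 1.04e-05). Thrsp (−0.77) lost its call without AF+BCNU array 2 (−0.51), and Elovl6 (−0.67) without AF+BCNU array 1 (−0.60), AF+BCNU array 2 (−0.74) or AF array 1 (−0.33). None of 20 mevalonate genes was called. Of 32 insulin signalling genes, 1 rose and 4 fell. Socs3, an inhibitor of cytokine and insulin signalling, had 5.65 and 5.64 in AF+BCNU cells, against 4.48 and 4.22 in AF cells (1.29 ± 0.21). Grb14, an adaptor that inhibits the insulin receptor, had 4.03 and 4.24 in AF+BCNU cells, against 5.31 and 5.37 in AF cells (−1.21 ± 0.19). Of these 2 inhibitors, the one was higher and the other lower with BCNU added. Irs1, the insulin receptor substrate, had 6.08 and 6.25 in AF+BCNU cells, against 6.47 and 7.05 in AF cells (−0.59 ± 0.16), and this call was lost without AF+BCNU array 1 (−0.51) or AF array 2 (−0.30). Grb10 (−0.51) lost its call without AF+BCNU array 1 (−0.51) or AF array 1 (−0.46), and Rptor (−0.51) without AF+BCNU array 1 (−0.47). Slc2a4, the insulin-responsive glucose transporter GLUT4, had 9.54 and 9.41 in AF+BCNU cells, against 9.77 and 9.85 in AF cells (−0.34 ± 0.09, adjusted p = 0.0134), a difference under the 0.5 threshold.

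For the lists of this paragraph, the shares over all genes were 3.72% higher and 3.71% lower. Of 21 glycolysis genes, none rose and 2 fell, Eno2 (−0.99) and Pdk3 (−0.54). Of 37 respiratory chain and mitochondrial biogenesis genes, none rose and 2 fell. These were the coactivators Ppargc1a (−0.60) and Ppargc1b (−0.55), and the call of Ppargc1b was lost without AF+BCNU array 1 (−0.39) or AF array 2 (−0.43). Of 27 apoptosis regulators, 3 rose and none fell, led by Tnfrsf12a, the TWEAK receptor, with 9.61 and 9.65 in AF+BCNU cells, against 8.18 and 7.85 in AF cells (1.61 ± 0.16). Casp4 (0.81) lost its call without AF+BCNU array 2 (0.73) or AF array 2 (0.67), and Casp8 (0.60) without AF+BCNU array 1 (0.63), AF+BCNU array 2 (0.57) or AF array 2 (0.30). Of 17 circadian clock genes, 3 rose and 1 fell. Ciart, a clock repressor, rose by 1.00, Nfil3 by 0.78 and Cry1 by 0.60, and Bhlhe41 fell by 0.50, a call that was lost without AF+BCNU array 1 (−0.44) or AF array 2 (−0.48). P2rx7 was the only one of 15 purinergic receptors that was called. It had 3.17 and 2.77 in BCNU cells and 2.57 and 2.56 in control cells, so that BCNU on top of auranofin added 3.38 and auranofin alone 2.43.

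A few markers of other cell types moved. Of 10 macrophage markers, 3 rose and none fell, beside 3.72% and 3.71% of all genes. The lysosomal glycoprotein Cd68 had 7.58 and 7.55 in AF+BCNU cells, against 5.41 and 4.97 in AF cells (2.37 ± 0.24). Its mean lay at percentile 79.1 of all genes in AF+BCNU cells and 58.3 in AF cells. The integrin Itgam had 4.09 and 4.13 in AF+BCNU cells, against 2.44 and 2.42 in AF cells (1.68 ± 0.20). Mrc1 (0.95) lost its call without AF+BCNU array 1 (0.33), AF array 1 (0.96) or AF array 2 (0.95), and its AF mean of 1.76 lay near background. The lysozyme gene Lyz2 had a mean of 4.08 in AF+BCNU cells, against 4.90 in AF cells (−0.82, adjusted p = 0.0996), and Csf1r, the receptor of macrophage growth factor, changed by −0.12. Of the defining markers, Adgre1 (F4/80) had means of 1.81 in AF+BCNU cells and 1.78 in AF cells, both under 2.25, and Ptprc (CD45) had 2.13 in AF+BCNU cells and 2.32 in AF cells. Summed over the 10 markers on the linear scale, the signal was 344 and 322 in AF+BCNU cells, against 150 and 154 in AF cells. Most of that gap was Cd68, and the other 9 summed to 153 and 134 in AF+BCNU cells, against 107 and 123 in AF cells. Of 8 endothelial markers, 1 was called, Pecam1, with 7.13 and 6.38 in AF+BCNU cells, against 4.60 and 4.15 in AF cells (2.38 ± 0.27). Cdh5, Tek and Emcn lay under 2.25 in both groups. Kdr was not called, with means of 3.16 in AF+BCNU cells and 2.42 in AF cells (0.73, limma adjusted p = 0.0627). The sum of the 8 endothelial markers was 176 and 118 in AF+BCNU cells, against 57.7 and 50.5 in AF cells. Without Pecam1, the other 7 summed to 36.3 and 34.9 in AF+BCNU cells, against 33.5 and 32.8 in AF cells. None of 9 skeletal muscle markers was called, and these summed to 607 and 538 in AF+BCNU cells, against 561 and 537 in AF cells. The part of such cells in the results was not tested.

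**Figure D4:**
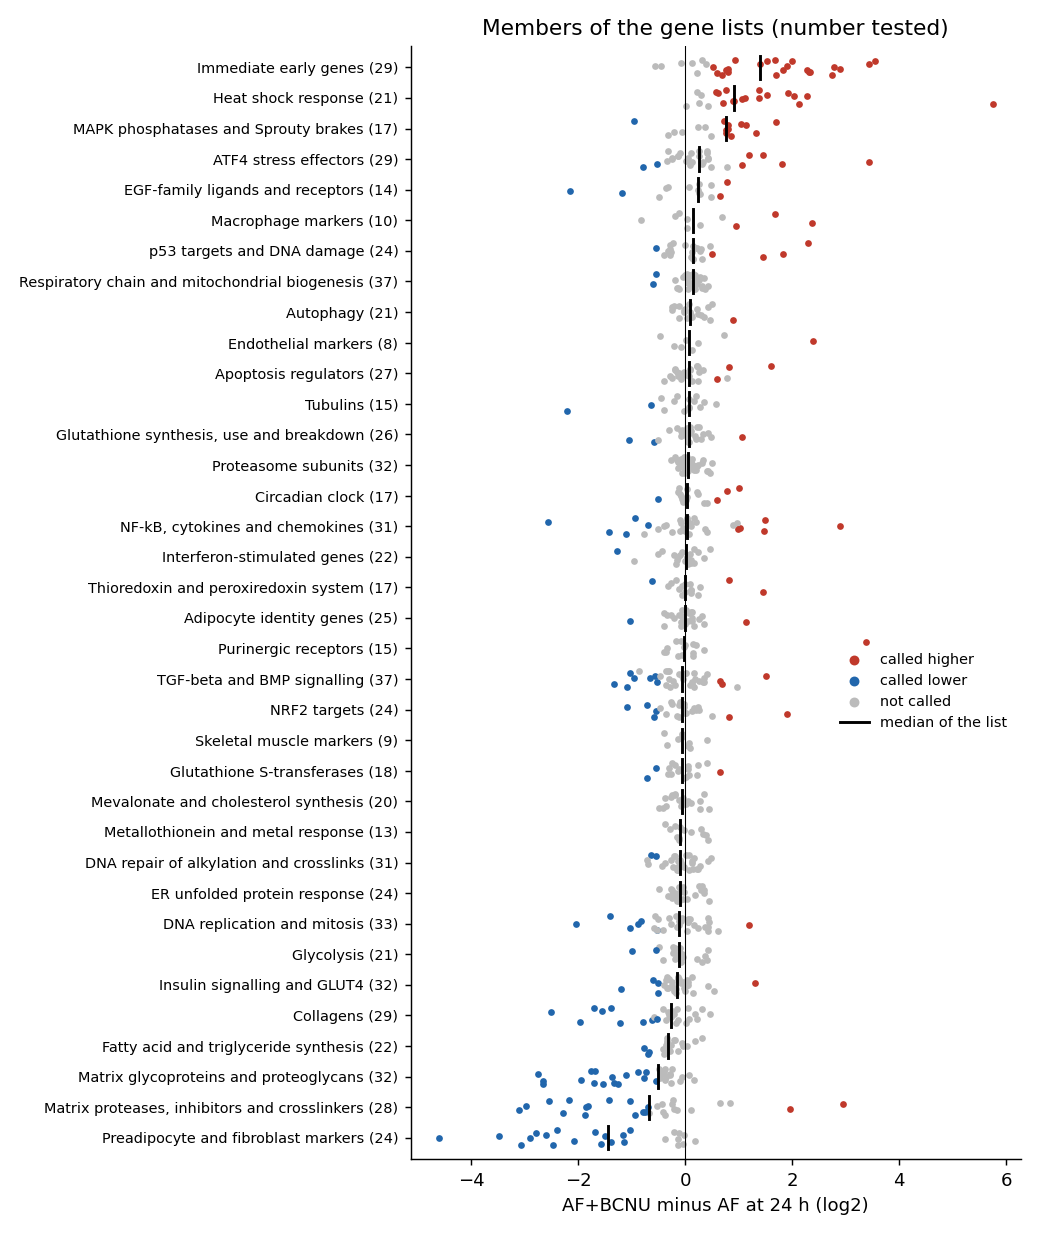
Change on adding BCNU to auranofin at 24 h (AF+BCNU minus AF, log2, horizontal axis) of every tested member of the 36 gene lists, ordered by median, with the number tested beside each name, a point for each gene and a bar at the list's median. The medians run from 1.40 for immediate early genes at the top to −1.45 for preadipocyte and fibroblast markers at the bottom.

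Over the 36 lists, 187 of the 810 genes tested were called, 84 higher and 103 lower, and a gene in several lists was counted once. Of all genes tested, 3.72% were called higher and 3.71% lower, the shares to set beside each list's count. The lists were chosen with results of these data known, so these counts describe the lists and are no independent support of a direction.

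The effect of adding BCNU was next followed over time, since the study sampled AF+BCNU and AF cells at 2, 4, 8 and 24 h. The number of genes called was 183 at 2 h (0.851% of those tested), 1138 at 4 h (5.29%), 2252 at 8 h (10.5%) and 1596 at 24 h (7.42%). Immediate early genes were called higher in 8, 14, 22 and 22 of 29 at 2, 4, 8 and 24 h, beside 0.279%, 2.11%, 5.50% and 3.72% of all genes. Heat shock genes were called higher in 3, 6, 9 and 16 of 21 at the same times. Preadipocyte and fibroblast markers were called lower in 2, 3, 5 and 16 of 24, and matrix glycoproteins in 0, 0, 3 and 16 of 32, beside 0.572%, 3.19%, 4.97% and 3.71% of all genes. Collagens were called lower in 1, 2, 1 and 9 of 29 and matrix proteases, inhibitors and crosslinkers in 1, 3, 5 and 14 of 28. Thus, the immediate early count was level between 8 and 24 h, and the others were highest at 24 h. Fos rose by 2.70, 3.97, 4.10 and 2.89 at 2, 4, 8 and 24 h, and Egr1 by 2.21, 3.51, 4.32 and 3.54. Hspa1a changed by 0.23, −0.11, 1.13 and 5.75, and was called at 24 h only. Its near-identical copy Hspa1b rose by 1.03, 1.54, 1.94 and 1.93 and was called at each time. Postn changed by −0.36, −0.39, −0.37 and −2.75. NRF2 targets were called lower in 8 of 24 at 8 h, where 2 were higher, among them Nqo1 (−1.57), Gsr (−0.62) and Gclm (−0.55).

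**Figure D5:**
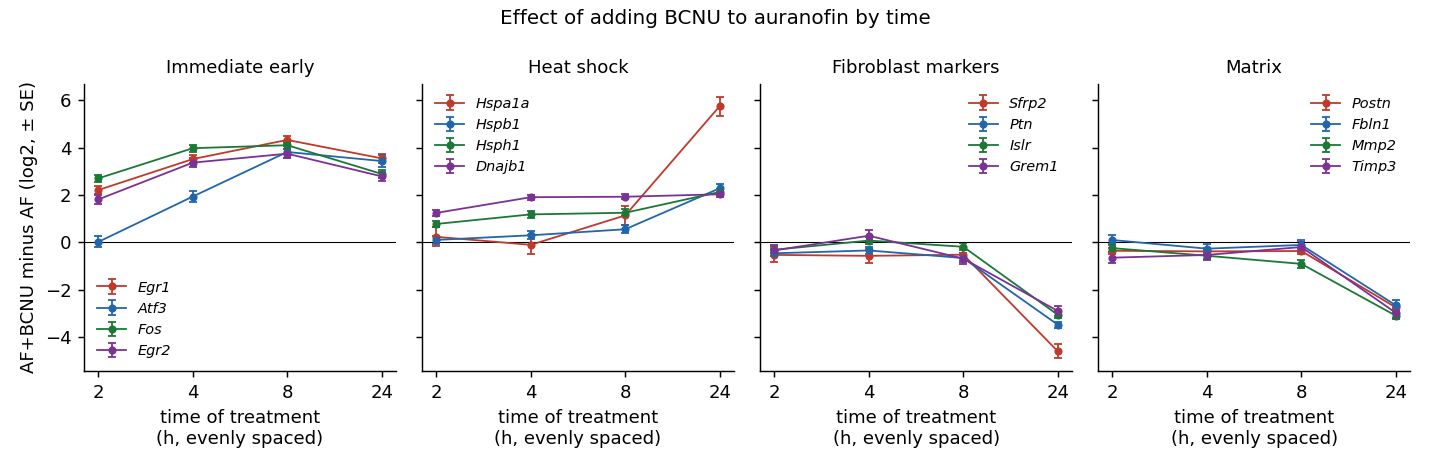
Change on adding BCNU to auranofin (AF+BCNU minus AF, log2, mean ± SE, n = 2 arrays a group) at 2, 4, 8 and 24 h, evenly spaced on the horizontal axis, in 4 panels of immediate early genes, heat shock genes, fibroblast markers and matrix genes. The immediate early genes reached 3.74 to 4.32 by 8 h, whereas the fibroblast and matrix genes lay between −0.91 and −0.11 at 8 h and between −4.60 and −2.66 at 24 h.

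The difference between the 24 h and 8 h effects was tested in the same fit. It was called in 536 genes (2.49%), of which 247 were higher at 24 h (1.15%) and 289 lower (1.34%). The number rests on single arrays, and was 283 without AF 8 h array 2, 338 without AF+BCNU array 2 and 357 without AF array 1. Among the heat shock genes, 10 of 21 had a larger rise at 24 h and none a smaller one, with Hspa1a at 4.61 ± 0.57 (limma adjusted p = 4.09e-05) and Hspb1 at 1.73 ± 0.25. By contrast, Hspa1b (−0.01 ± 0.19) and Dnajb1 (0.10 ± 0.16) were not called by this test. Among the fibroblast markers, 14 of 24 had a lower effect at 24 h, with Sfrp2 at −4.08 ± 0.41, Islr at −2.87 ± 0.22 and Ptn at −2.81 ± 0.19. Of the immediate early genes, 5 had a smaller rise at 24 h, for instance Fos (−1.21 ± 0.22), and 1 a larger rise, Arc (0.92), so that most of this list did not differ by the test. A few genes were called in opposite directions at the 2 times, and were picked out after their values were seen. Adamts1, Col8a1, Gm11110, Itga11, Myl9, Tagln and Thbs1 were lower at 24 h and higher at 8 h. Thbs1, the matricellular protein thrombospondin 1, changed by −1.68 at 24 h and 0.72 at 8 h, and Myl9, a myosin light chain of contractile cells, by −2.30 and 0.83. Bcl3, an NF-kB cofactor, changed by 1.18 at 24 h and −0.72 at 8 h, and Il13ra1, an interleukin 13 receptor chain, by 1.15 and −1.57. The 24 h call of Il13ra1 was lost without AF+BCNU array 2 (0.95) or AF array 2 (0.83).

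Finally, the effect of adding BCNU with auranofin present was set against its effect without auranofin (BCNU minus control cells at 24 h), since the design crossed both drugs. The difference was called in 810 genes (3.77%), of which 377 were higher with auranofin (1.75%) and 433 lower (2.01%). This test shares the AF+BCNU and AF arrays with the comparison above, so the 2 sets of calls were not set against each other. Heat shock genes were higher by this test in 16 of 21 and lower in none. For Hspa1a the difference was 5.24 ± 0.57 (limma adjusted p = 4.52e-06), since BCNU changed it by 5.75 with auranofin and by 0.51 without, against a control level near background. For Atf3 it was 3.45 ± 0.33, with a change of 3.43 with auranofin and −0.02 without. Immediate early genes were higher by this test in 15 of 29, and fibroblast markers lower in 16 of 24. Sfrp2 changed by −4.60 with auranofin and −0.79 without (difference −3.81 ± 0.41), and Grem1 by −2.90 and 0.87 (−3.77 ± 0.32). Kif11, the spindle kinesin, was called lower with BCNU on top of auranofin (−0.88) and higher with BCNU alone (0.95), a difference of −1.83 ± 0.23.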

How the data were processed

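Labelled cRNA made from total RNA of 3T3-L1 adipocytes was hybridised to Affymetrix Mouse Gene arrays, given as version 2.1 ST in the annotation used by the study, with 2 arrays in each of 16 groups. The authors had processed the arrays with robust multi-array average (RMA), which corrects background, normalises quantiles over all arrays and summarises probes, and the deposited values were log2 expression levels of 25293 probe sets. The RMA version and the genome build were not given in the sources used here. Quantile normalisation sets every array to one distribution, so a change of the whole RNA pool cannot be seen. The depth of an array has no count, and the number of arrays limits the precision.

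Probe sets were named from GEO's annotation of the array. It paired 22030 probe sets with 1 symbol each and 685 with more than one, and 2578 were unnamed. Genes with more than 1 probe set (465) were taken as the median, which left 21506 genes. Group means over all 32 arrays were fitted with limma 3.58.1 in R 4.3.3 (two-sided moderated test, 16 residual degrees of freedom, no replicate block), and genes were called at an adjusted p under 0.05 with an absolute log2 change over 0.5, as in the study's methods. The fit was tested on simulated data before use.

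The text names the 12 largest rises and falls among called genes with an established symbol whose groups did not overlap, up to 4 called members in each direction of 36 gene lists, the 4 largest differences in each direction of the other tests, and a fixed set of redox, stress and adipocyte genes. The comparison, its gene lists and these rules were chosen with earlier results of these data known. Of 926 list entries, 834 were tested, and the others, among them Cdkn1a and Mt1, were not analysed here. Linear sums of markers are sums of 2 to the power of the log2 level. Promoter windows came from the RefSeq table for GRCm38.p6 and were searched on both strands in Python 3.11.15. Alternatives covered centring, cyclic loess, a filter on low levels, the choice of probe set, the arrays fitted, the variance model, a test against a minimum change (treat), a replicate block and leaving out each array.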

Additional observations from a re-analysis of the deposited data

Results flagged for a closer look

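The effect of adding BCNU to auranofin differed between times. The difference, 24 h minus 8 h, was called by limma in 536 genes. The largest positive differences among genes called at 24 h were those of Hspa1a (4.61), Serpinb2 (2.88), Ccdc81 (2.78) and Il13ra1 (2.72), and the largest negative ones those of Sfrp2 (−4.08), Myl9 (−3.13), Pcdh18 (−3.09) and Islr (−2.87). Serpinb2 and Ccdc81 lay near background in AF cells at 24 h, and Hspa1a in control cells. Myl9 and Il13ra1 were called in opposite directions at 24 h and 8 h.

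The effect also differed with and without auranofin at 24 h, in 810 genes. The largest positive differences were those of Hspa1a (5.24), Atf3 (3.45), Sprr1a (3.36) and Fam71a (3.36), and the largest negative ones those of Sfrp2 (−3.81), Grem1 (−3.77), Clca3a1 (−3.48) and Thy1 (−3.31). Grem1 and Thy1 were called lower with BCNU on top of auranofin and changed by 0.87 and 0.51 with BCNU alone, neither of which was called.

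The genes tested left out 3263 probe sets with several symbols or none. In a fit made on probe sets rather than genes, 218 of these were called by the same rule. Of the 218, 118 were higher and 100 lower in AF+BCNU cells. They are not named here.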

How the results depend on the processing

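The 1596 genes called became 1145 to 1500 on leaving out 1 array (1145 without AF+BCNU array 1), and 401 with treat at a minimum change of 0.5 (179 higher, 222 lower). Other settings gave 1170 to 1655, and the counts of higher genes were 587 to 760 and of lower genes 540 to 740 without 1 array. The replicate numbers are shared only as numbers (deviations of same-numbered arrays correlated at −0.0019). With a replicate block 1614 genes were called, 1571 of them among the 1596, and no call of a named gene was lost.

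The difference between 24 h and 8 h moved more. Its 536 genes became 808 among genes above the median level (384 higher), 334 with only the arrays of those times (128 higher) and 100 with treat (24 higher, 76 lower), and 283 to 478 without 1 array (107 to 192 higher, 176 to 286 lower). Without AF array 1, 132 were higher, and without AF+BCNU array 2, 133. Centring each array on its median gave 428 higher and 249 lower, against 247 and 289. The difference with and without auranofin, 810 genes, became 370 with the 24 h arrays alone (171 higher, 199 lower), 218 with treat (90 higher, 128 lower) and 569 to 749 without 1 array (256 to 352 higher, 285 to 397 lower, the lowest without AF+BCNU array 1).

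With treat, the lists held 101 called genes, with 10 heat shock genes and 3 phosphatase and Sprouty genes higher and 5 collagens lower. Leaving out 1 array kept 16 fibroblast markers lower throughout and 16 or 17 heat shock genes higher. The 4 reversals were of genes that were not called: Gsr (−0.22 to 0.081 without 1 array, above 0 without AF array 1), Hmox1 (−0.035 to 0.051, below 0 without AF+BCNU array 1 and at −0.02 without AF array 2) and Slc7a11 (−0.21 to 0.72, below 0 without AF array 2). The cause was not tested. Calls of named genes at 24 h were lost in 5 genes with cyclic loess (Gsta3, Fan1, Grb10, Rptor and Bhlhe41, with adjusted p up to 0.0516 or changes just under 0.5), in Plk2 with centring (0.498), in Fan1 with a trended, robust variance (adjusted p = 0.0586), in 48 with treat and in 18 with the 24 h arrays alone (adjusted p of 0.0511 to 0.205). These 18 were Gsta3, Gsto2, Aldh1l2, Vldlr, Plk2, Brca2, Fan1, Cdc20, Epgn, Car3, Thrsp, Elovl6, Irs1, Grb10, Ppargc1b, Smad7, Casp8 and Mrc1.

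Low signal limits the dim genes. Among the genes split into 3 equal classes by level, the lowest class had 81 genes higher and 12 lower, and 57 of those 81 were also called after cyclic loess.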
